A study of Mus musculus with 12 samples.

Results

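The genes described here encode the conjugating enzymes of 3 families: the UDP-glucuronosyltransferases (Ugt), the soluble glutathione S-transferases (Gst) and the sulfotransferases (Sult). They were chosen by symbol alone, as every gene whose name starts with Ugt1, Ugt2, Ugt3, Gsta, Gstk, Gstm, Gsto, Gstp, Gstt, Gstz or Sult and does not carry the pseudogene mark "-ps". This gave 64 of the 55450 genes in the table, 21 Ugt, 22 Gst and 21 Sult. Total RNA came from the brain and the liver of males, 7 to 9 weeks old, that were wild type (Vaultrc5+/+) or knockout (Vaultrc5-/-). Vaultrc5 encodes a short vault RNA, which is not translated. The 4 groups were wild-type brain, knockout brain, wild-type liver and knockout liver, with 3 libraries in each. The titles call the control libraries "flx", while the genotype label calls them wild-type, and they are called wild type below; the labels name no Cre and no strain. The labels do not say whether the libraries of a group came from separate animals, so p-values measure only the spread between these libraries.

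Conjugating enzymes attach a polar group to hormones, bilirubin, bile acids, drugs and products of lipid oxidation. Ugt enzymes sit in the endoplasmic reticulum and mostly transfer glucuronic acid from UDP-glucuronic acid, Gst enzymes add glutathione to electrophiles, and Sult enzymes transfer sulfate from the donor PAPS. The liver is the best known site of this chemistry, and the conjugates leave the hepatocyte through transporters toward bile or blood.

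A brain library held 14844937 to 18567362 counts and a liver library 23247425 to 27155478. The deleted gene was at 4, 1 and 4 counts in wild-type brain, at 33, 39 and 48 in wild-type liver, and at 0 in all 6 knockout libraries. Snap25, a synaptic gene, had 31003 to 40259 counts in brain and at most 3 in liver, and albumin (Alb) had 714287 or more in liver and at most 5 in brain. The 5 hepatocyte markers other than Ttr summed to 0.400 to 2.96 CPM (counts per 1e6 counts of the library, scaled by TMM within a tissue) in brain and to 45949 CPM or more in liver. Ttr, which choroid plexus also expresses, was left out of that sum: it was at 217, 406 and 585 CPM in wild-type brain replicates 1 and 3 and knockout brain replicate 1, and at 0.275 to 3.58 CPM in the other 3 brain libraries. The 5 choroid plexus markers summed to 39.1 to 73.5 CPM in the same 3 libraries and to 4.46 to 9.57 CPM in the others, and the part of this in the members' brain levels was not tested. Knockout brain replicate 3 stood apart in its 4 pancreatic markers, which summed to 3820 CPM there and to at most 1.20 CPM in the other 5 brain libraries. Knockout liver replicate 2 stood apart in its Kupffer cell markers, given with the liver results below. These are whole tissues, in which fewer cells of a type and less RNA per cell cannot be told apart.

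The sequences shown first are those that decide how reads could be assigned to these genes. The 9 Ugt1a genes lie on chromosome 1 between 88055388 and 88220002 (GRCm38, plus strand), and their transcripts join different first exons to the same 4 downstream exons. Ugt1a6a has no first coding exon to itself in this annotation: a transcript of Ugt1a7c uses the same one (88138474 to 88139331), and 100% of the 50-base coding windows of Ugt1a6a were also found in Ugt1a7c. Their coding sequences ended in an identical stretch of 735 bases, from a total of 1584 to 1605 bases. The junctions below (GENCODE M21 transcripts) give the last 40 bases of the first coding exon in lower case and the first 40 bases of the shared exon 2, chr1:88215044-88215175, in capitals. Ugt1a1 is the bilirubin-conjugating form, Ugt1a6a acts on planar phenols, Ugt1a9 is another phenol-conjugating form, and Ugt1a5 is shown because its level varied between liver libraries.
Ugt1a1: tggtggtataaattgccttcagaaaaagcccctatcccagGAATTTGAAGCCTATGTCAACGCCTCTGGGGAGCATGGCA
Ugt1a6a: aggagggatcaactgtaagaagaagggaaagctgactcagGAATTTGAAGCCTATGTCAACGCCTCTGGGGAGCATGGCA
Ugt1a9: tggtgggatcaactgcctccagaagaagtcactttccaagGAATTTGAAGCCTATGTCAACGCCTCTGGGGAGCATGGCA
Ugt1a5: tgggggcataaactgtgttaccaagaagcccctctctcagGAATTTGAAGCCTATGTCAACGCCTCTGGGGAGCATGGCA
The capitals are the same in all 4 lines, and a read lying wholly in them or downstream carries nothing that tells the genes apart. The deposited counts show that such reads were divided: all 9 Ugt1a genes carried fractional counts, and their sum was whole (within 0.05) in 12 of 12 libraries.

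Gstp1 and Gstp2 encode the pi-class enzymes and lie on chromosome 19 (the Gstp genes span 4035407 to 4059569, GRCm38). Their coding sequences of 630 bases differed at 12 positions and were identical from base 331 to the end. The first 180 coding bases hold 6 of the 12 differences, marked by capitals, and are shown because the count of Gstp2 varied more than that of any other member.
Gstp1: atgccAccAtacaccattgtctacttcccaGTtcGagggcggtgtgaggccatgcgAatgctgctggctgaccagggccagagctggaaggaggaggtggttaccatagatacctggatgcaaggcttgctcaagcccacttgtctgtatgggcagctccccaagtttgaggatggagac
Gstp2: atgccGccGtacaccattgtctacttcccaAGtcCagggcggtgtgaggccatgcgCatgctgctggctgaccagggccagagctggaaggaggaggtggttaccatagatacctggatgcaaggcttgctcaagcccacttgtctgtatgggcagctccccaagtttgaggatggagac
Windows of 50 coding bases found in both genes made up 70.9% of those of either gene. Among the 50 members with more than 3 counts in some library, 25 shared at least 1 such window with another member, and 24 of these had fractional counts, Ugt2b36 being the exception. The other 25 shared none, and 2 of them (Gstt3 and Sult1a1) had fractional counts. The read length is not given in the sources used here, so the window is a description of likeness and not a model of the counting.

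Upstream sequence was searched on both strands for a 10-letter stretch of the HNF1 consensus, which spans 1 arm of its palindrome, the free middle position and the start of the other arm (its matches are the capitals below), and for the antioxidant response core TGACNNNGC, in 300 bases from 250 before to 50 after the RefSeq start sites (GRCm38.p6). HNF1 factors are liver-enriched activators and the antioxidant response element is bound by the Nfe2l2 product. Of the 56 members with a promoter entry, 8 (14.3%) held the HNF1 stretch, against 0.470% of 27025 genes, and 3 (5.36%) held TGACNNNGC, against 13.99%. The 8 were Ugt1a1, Ugt1a9, Ugt1a10, Sult1d1, Sult2a3, Sult2a4, Sult2a5 and Sult2a6, and the 3 were Gsta3, Gstm5 and Gstm7. Of the 8, the 4 Sult2a genes had at most 3 counts in every library, while Ugt1a1, Ugt1a9, Ugt1a10 and Sult1d1 were at 1 CPM or more in liver. The 4 Sult2a genes belong to 1 gene cluster and the 3 Ugt1a genes to another, so the matches are not independent of each other. The 150 bases below are chr1:88070629-88070778 (plus strand) for Ugt1a9, chr1:88211809-88211958 (plus strand) for Ugt1a1 and chr5:87569007-87569156 (minus strand) for Sult1d1, written along the gene's strand, with the match in capitals. It starts 95, 45 and 79 bases before the start site and reads on the opposite strand in Ugt1a9 and Ugt1a1.
Ugt1a9: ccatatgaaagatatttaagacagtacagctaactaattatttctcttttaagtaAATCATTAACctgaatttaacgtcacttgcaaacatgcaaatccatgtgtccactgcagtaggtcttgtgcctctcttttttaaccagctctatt
Ugt1a1: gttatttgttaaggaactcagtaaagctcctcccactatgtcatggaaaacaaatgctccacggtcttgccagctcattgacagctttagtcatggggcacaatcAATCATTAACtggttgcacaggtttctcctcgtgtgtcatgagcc
Sult1d1: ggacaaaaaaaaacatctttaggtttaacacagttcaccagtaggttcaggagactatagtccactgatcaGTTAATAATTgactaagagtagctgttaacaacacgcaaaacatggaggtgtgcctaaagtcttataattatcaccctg
A match is a run of letters, not a shown binding site, and nothing follows from its absence elsewhere.

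The families differed in how many members were detected in each tissue. In liver, 45 of the 64 members reached a mean of 1 CPM in wild type or knockout (19 of 21 Ugt, 20 of 22 Gst and 6 of 21 Sult). In brain 19 did so: 1 Ugt (Ugt1a6a), 15 Gst and 3 Sult. All 15 Gst genes of the brain were also at 1 CPM or more in liver, and Sult4a1 and Sult2b1 were the 2 members at that level in brain alone. Gstt4, Sult1c1, Sult2a1, Sult2a2, Sult2a3, Sult2a4, Sult2a5, Sult2a6, Sult3a1, Sult3a2, Sult6b1, Sult6b2, Ugt2a1 and Ugt2a2 had at most 3 counts in every library, 9 of the 14 having none at all. A level of 3 counts, taken as the floor, lay between 0.110 and 0.198 CPM, and this limit covers counting error only. Gsto2, Sult1e1 and Sult2a7 lay above the floor in some library and under 1 CPM in both tissues.

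**Figure D1:**
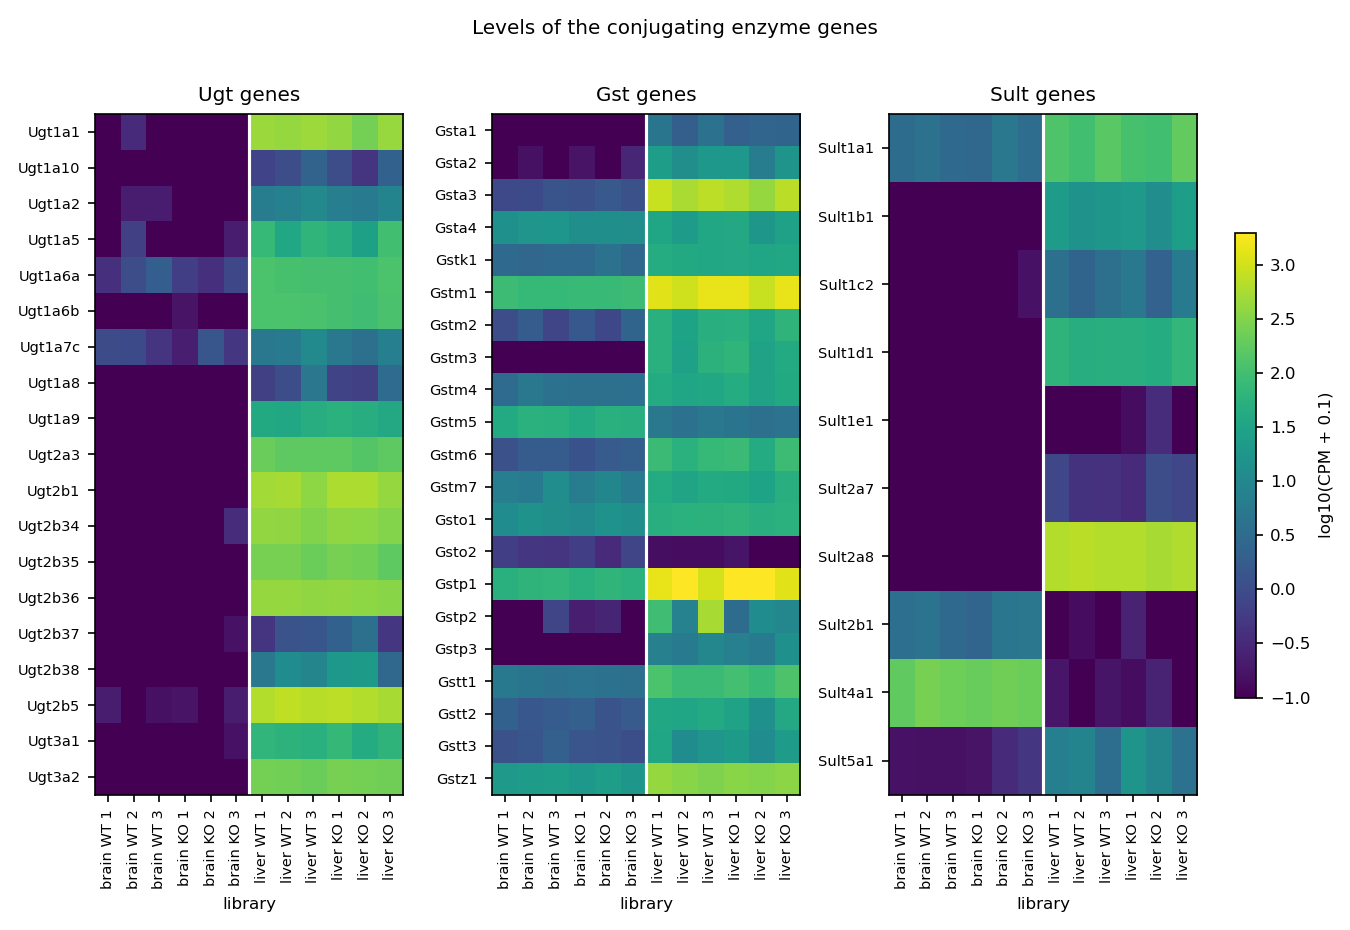
Level of the 50 members with more than 3 counts in some library, as log10(CPM + 0.1), by gene (vertical axis) and library (horizontal axis), with brain left and liver right of the white line. Ugt genes are dark in brain and bright in liver, 15 Gst genes reach 1 CPM in both tissues, and Sult4a1 is bright in brain. Sult2b1 is fainter there, at 2.44 to 4.88 CPM.

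The 3 families together summed to 9214, 8863 and 8743 CPM in the wild-type liver libraries and to 9439, 8206 and 8445 CPM in knockout liver. In brain the sums were 440, 545 and 523 CPM in wild type and 451, 530 and 491 CPM in knockout. Within wild-type liver the Gst genes held 4596 ± 202 CPM (SD, n = 3), the Ugt genes 3472 ± 213 and the Sult genes 872 ± 15.5. Within wild-type brain the Gst genes held 272 ± 15.5 CPM and the Sult genes 229 ± 43.4, while the Ugt genes summed to 2.10 ± 0.70.

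Levels were put in order per length, as CPM per kb of merged exons. Among the Ugt genes of wild-type liver Ugt2b5 stood highest, at 375 ± 31.9 CPM per kb (SD, n = 3). Ugt1a1 (198 ± 12.3), Ugt2b36 (197 ± 9.86) and Ugt2b1 (184 ± 36.0) followed and did not differ beyond their spread. Ugt2a3 (86.0 ± 9.75) and Ugt2b34 (85.0 ± 12.5) came next, again within each other's spread. Ugt2b enzymes conjugate steroids among other substrates. Ugt2b5 was at 648, 763 and 682 CPM in wild-type liver and at 738, 629 and 551 CPM in knockout liver, with overlapping groups. Its summed count with its near copies Ugt2b37 and Ugt2b38, which differed from it at 85 and 47 of 1590 coding bases, was whole in all libraries. Ugt1a1 was at 446, 410 and 464 CPM in wild-type liver and 408, 249.5 and 432 CPM in knockout, the lowest value being that of knockout replicate 2 and knockout the lower within each replicate number. Ugt3a1 and Ugt3a2, whose products use other sugar donors than UDP-glucuronic acid, were at 22.6 ± 2.75 and 76.3 ± 6.45 CPM per kb.

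Among the Gst genes of wild-type liver the pi-class Gstp1 (962 ± 316 CPM per kb, SD, n = 3) and the mu-class Gstm1 (848 ± 162) led and did not differ beyond their spread. Gstp2 was at 198 ± 263, an SD above its mean, and its place rested on wild-type replicate 3: without that library it was at 47.4 CPM per kb, below Gsta3, Gstz1 and Gstt1. Gsta3, an alpha-class enzyme that acts on aflatoxin epoxide, was at 168 ± 34.8. Gstz1, the maleylacetoacetate isomerase of tyrosine breakdown, was at 68.6 ± 12.8 and the theta-class Gstt1 at 63.4 ± 12.7. Gstm1 measured 1303, 987 and 1455 CPM in wild-type liver and 1415, 859 and 1440 CPM in knockout liver. Gsta3 measured 867, 568 and 750 CPM in wild-type liver and 615, 423 and 725 CPM in knockout liver. For both genes replicate 2 was the lowest of each genotype, and the genotypes overlapped, although Gsta3 was lower in knockout within each replicate number.

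Among the Sult genes of wild-type liver Sult2a8, a bile acid sulfotransferase, was highest at 201 ± 14.7 CPM per kb (SD, n = 3). Sult1a1, the phenol sulfotransferase, followed at 86.2 ± 19.7 and Sult1d1, which acts on catecholamines, at 21.6 ± 3.44. Sult1b1, which acts on thyroid hormones, was at 6.99 ± 1.37, and Sult1c2 (1.77 ± 0.444) and Sult5a1 (1.47 ± 0.612) did not differ beyond their spread. Sult2a8 measured 639, 715 and 625 CPM in wild-type liver and 636, 545 and 619 CPM in knockout, and had 0 counts in all 6 brain libraries. Sult1e1, the estrogen sulfotransferase, was at 0 in wild-type liver and reached 0.255 CPM in knockout liver replicate 2.

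Brain had another order. Sult4a1, a sulfotransferase-like protein of neurons, was the highest member there per length, at 88.4 ± 17.1 CPM per kb in wild type (SD, n = 3). Gstm1 (54.5 ± 4.79), Gstp1 (39.4 ± 4.77) and Gstm5 (39.1 ± 5.48) followed, the last 2 within each other's spread by this length, and then Gsta4 (13.0 ± 1.54), which conjugates the lipid aldehyde 4-hydroxynonenal. Sult1a1 was at 2.17 ± 0.357 and Sult2b1, a cholesterol sulfotransferase, at 0.90 ± 0.183. Ugt1a6a, the Ugt gene that reached 1 CPM, was at 0.237 ± 0.178, a level that depends on how reads were divided between it and Ugt1a7c. Sult4a1 measured 176, 261 and 228 CPM in wild-type brain and 197, 235 and 214 CPM in knockout brain, and at most 0.170 CPM in any liver library. Ugt1a6a measured 0.297, 0.936 and 1.83 CPM in wild-type brain and 0.528, 0.294 and 0.741 CPM in knockout brain.

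The tissue difference was tested in each genotype on its own 6 libraries with edgeR's quasi-likelihood test over all genes (Benjamini-Hochberg adjusted p under 0.05). In wild type 46 members had counts enough to be tested, and 43 were higher in liver and 3 in brain. Of all 18850 genes tested, 78.6% were called, 34.7% higher and 43.9% lower in liver. In knockout 45 members were tested, 42 higher in liver and 3 in brain, against 78.7% of 18785 genes called, 35.2% higher and 43.5% lower. Of the members 20 had counts enough to be tested within brain, so most entered these fits only through liver, where they had to be the higher. The counts therefore describe the tested members, not all 64, and are no test of the families. Scaling by library totals in place of TMM moved the median log2 difference of all genes from -0.21 in both genotypes to -1.05 in wild type and -1.08 in knockout, and the share of called genes that were higher in liver from 44.2% to 25.6% in wild type and from 44.7% to 24.9% in knockout. It left the members' counts at 43 and 3 in wild type and at 42 and 3 in knockout. CPM values above are scaled within a tissue and so lie near the library-total scale.

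All 18 Ugt genes tested in wild type were higher in liver, but Ugt1a6a and Ugt1a7c alone had counts enough to be tested within brain, so the filter fixed that direction for the other 16. Many had no brain counts, which makes a fitted value depend on the prior count. For the 21 members with 0 counts in every wild-type brain library and more than 3 in liver, the fold against the floor of 3 counts per library was used in its place. It was at least 2.63-fold higher in liver for Sult2a7 and at least 3843-fold higher for Sult2a8, with a median bound of 272-fold. These 21 were 13 Ugt, 3 Gst and 5 Sult genes. Ugt2b1 was at least 2764-fold and Ugt2b34 at least 2134-fold higher in wild-type liver. In knockout brain Ugt2b34 had 4 counts (0.247 CPM), all in replicate 3, the library with pancreatic markers. Ugt1a6a, with counts in all 12 libraries, was higher in wild-type liver by 7.62 ± 0.43 log2 units (SE, 3 against 3 libraries, edgeR adjusted p = 1.84e-06), and by 8.56 ± 0.26 in knockout (edgeR adjusted p = 1.8e-07). Its counts rest on the division of reads with Ugt1a7c. The sum of the 9 Ugt1a genes, which does not depend on that division, was higher in liver by 9.44 ± 0.31 log2 units in wild type and by 10.03 ± 0.35 in knockout (SE, n = 3 each, edgeR adjusted p = 1.42e-07 and 2.88e-07).

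**Figure D2:**
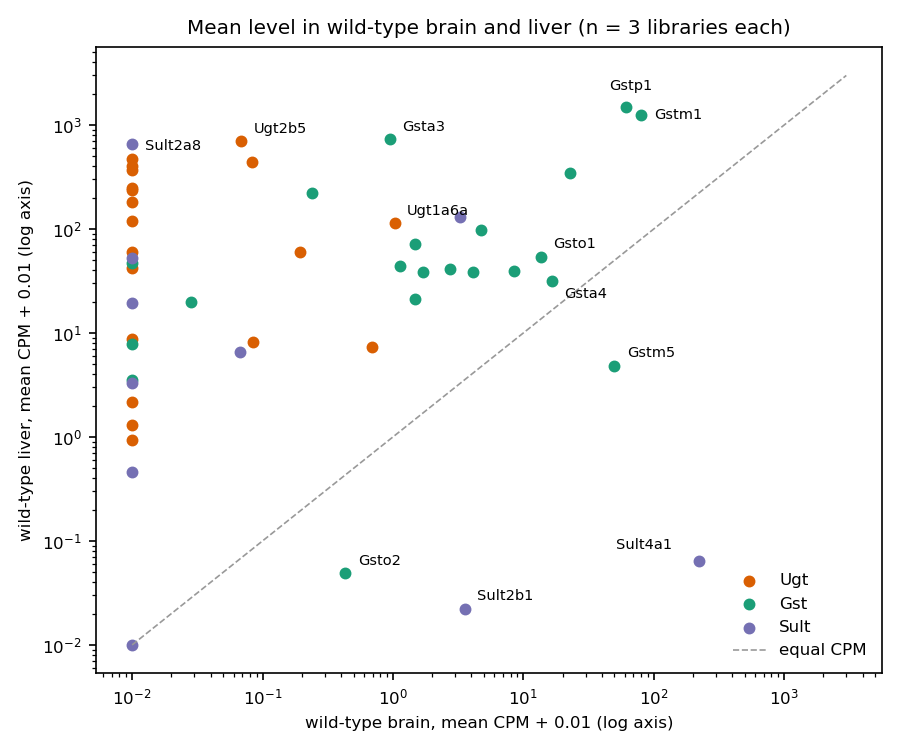
Mean CPM + 0.01 of the 50 members in wild-type brain (horizontal) and wild-type liver (vertical), both on log axes, coloured by family, with 3 libraries per tissue and the line of equal CPM dashed. Most members lie above the line, the points at the left edge had no brain counts, and Gstm5, Sult4a1, Sult2b1 and Gsto2 lie below it.

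The 15 Gst genes at 1 CPM or more in both tissues had measured levels on either side, and their wild-type log2 differences ran from -2.52 (Gstm5) to 10.44 (Gsta3). Gstm1 was at 88.3, 75.3 and 77.0 CPM in wild-type brain, and was higher in liver by 4.81 ± 0.20 log2 units (SE, n = 3 each, edgeR adjusted p = 3.86e-07). Gsta4 was at 14.3, 17.2 and 18.0 CPM in wild-type brain and 34.7, 23.6 and 36.0 CPM in wild-type liver, a log2 difference of 1.77 ± 0.19 (edgeR adjusted p = 6.13e-05) that was 0.94 on library totals. Gsto1, which reduces dehydroascorbate, differed by 2.84 ± 0.12 (edgeR adjusted p = 4.37e-07), or 2.01 on library totals. Gstm5, a mu-class gene known from brain and testis, was the member at 1 CPM or more in both tissues that was higher in brain. It was at 42.0, 54.9 and 53.1 CPM in wild-type brain and 5.20, 4.05 and 5.25 CPM in wild-type liver, and its liver level was lower by 2.52 ± 0.17 log2 units (edgeR adjusted p = 4.1e-06), and by 2.72 ± 0.14 in knockout (edgeR adjusted p = 1.43e-06). Within the mu class, 6 of 7 genes were thus higher in wild-type liver and Gstm5 in brain, with no overlap between tissues for Gstm5.

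Of the 8 Sult genes tested in wild type, 6 were higher in liver and 2 in brain. Sult4a1 was lower in liver by 11.09 ± 0.39 log2 units in wild type (SE, n = 3 each, edgeR adjusted p = 1.84e-07) and by 10.67 ± 0.41 in knockout (edgeR adjusted p = 4.22e-07). As it had at most 4 counts in any liver library, that size depends on the prior count. Sult2b1 was at 3.63, 4.24 and 2.80 CPM in wild-type brain, with 1 count or none in each wild-type liver library. Sult1a1 was at 3.15, 3.86 and 2.80 CPM in wild-type brain and 130, 100.1 and 159 CPM in wild-type liver, higher in liver by 6.16 ± 0.24 log2 units (edgeR adjusted p = 2.7e-07). Sult1d1, with no brain counts, was at least 309-fold higher in wild-type liver.

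The pathway genes around the conjugating enzymes were read from the same fits, from lists chosen with earlier results of these data known. Of 26 genes that supply the donors UDP-glucuronic acid, glutathione and PAPS, 19 were higher in wild-type liver and 7 in brain, with a median log2 difference of 2.61. Over all genes 34.7% were higher in wild-type liver and 43.9% lower, given for scale with these and the following counts. Slc26a1, a sulfate carrier, was higher in liver by 8.18 ± 0.18 and Cth, which makes cysteine, by 8.02 ± 0.32 log2 units (SE, n = 3 each). The cystine carrier Slc7a11 was lower in liver by 9.15 ± 0.36 and Ggt7, a gamma-glutamyltransferase family member, by 7.02 ± 0.21, their adjusted p under edgeR being 3.19e-07 for Slc7a11. Of 20 regulators, 19 were higher in liver and Cux2 in brain. Of these 20, 8 lacked the counts to be tested within brain. Those 8 entered the fits only through liver, where they had to be the higher. The regulator count is therefore no test of that list against all genes. Hnf4a, a liver nuclear receptor, averaged 569 CPM in wild-type liver and the xenobiotic receptor gene Nr1i2 50.9 CPM, both with no counts in wild-type brain.

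Of 21 tested genes for export and deconjugation, 11 were higher in wild-type liver and 8 in brain, the latter close to the share over all genes. The anion carrier Slco1a1 (621 CPM) and the bile acid carrier Slc10a1 (484 CPM) had no counts in wild-type brain. Slco1c1, a thyroxine carrier of brain vessels, was lower in liver by 8.53 ± 0.52 and the exporter Abcc5 by 3.61 ± 0.11 log2 units (SE, n = 3 each). Of 21 other conjugating enzymes 17 were higher in liver and 3 in brain. Gnmt, a glycine methyltransferase, was higher in liver by 10.93 ± 0.63 and Glyat, a glycine acyltransferase, by 10.84 ± 0.41 log2 units. Ugt8a, the galactosyltransferase of myelin lipids, was lower in liver by 7.40 ± 0.68 and Mgst3, a microsomal glutathione transferase, by 1.46 ± 0.24. In knockout the counts higher and lower in liver were 19 and 6, 19 and 1, 11 and 8, and 15 and 3 for the 4 lists in the same order. Within brain 17 of the 22 listed genes for export and deconjugation were tested, and 15 of the 22 other conjugating enzymes. Listed genes not tested there could enter the tissue fits only through liver, so the limit given for the regulators holds for these lists too.

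The second question was whether loss of Vaultrc5 went with a change in these enzymes. In brain none of the 20 tested members was called by edgeR's quasi-likelihood test, as was the case for 0 of all 18075 genes, a share of 0%. At an unadjusted p under 0.05 there was 1 member, against 0.675% of all genes, and DESeq2 called 0 members and had 0 at that unadjusted level. The median log2 fold change, knockout over wild type, was -0.06 over the members and -0.01 over all genes, with 7 members above 0 and 13 below. The direction depended on the library left out: the median was -0.12 without wild-type replicate 1 (8 above, 12 below), -0.12 without knockout replicate 2 (7 above, 13 below) and -0.05 without knockout replicate 3 (6 above, 14 below). It was 0.03 without wild-type replicate 2 (11 above, 9 below), 0.04 without knockout replicate 1 (11 above, 9 below) and 0.00 without wild-type replicate 3 (10 on each side). The member with the smallest p was Gsta4, at 14.3, 17.2 and 18.0 CPM in wild-type brain and 13.5, 13.6 and 13.2 CPM in knockout brain. Its knockout values all lay below the wild-type values, as they did for 1 of the 20 members and 2.37% of all genes (4.27% did not overlap in either direction). Its log2 fold change was -0.31 ± 0.13 (SE, n = 3 each, edgeR adjusted p = 1). Leaving out 1 library at a time moved its unadjusted edgeR p between 0.0134 and 0.154.

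Ugt1a6a, Gstt1 and Gstt3 came next in brain, with log2 fold changes of -0.98 ± 0.69, -0.24 ± 0.18 and -0.37 ± 0.33 (SE, n = 3 each), none past edgeR's test. Gstt1 measured 5.35, 4.63 and 4.11 CPM in wild-type brain and 4.16, 4.06 and 3.77 CPM in knockout brain, with overlap. Summed over the 9 Ugt1a genes, which removes the division of reads among them, the brain had 20, 48 and 40 counts in wild type and 12, 27 and 20 in knockout. The fold change of that sum was -0.76 ± 0.41 (SE, n = 3 each, edgeR adjusted p = 1).

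**Figure D3:**
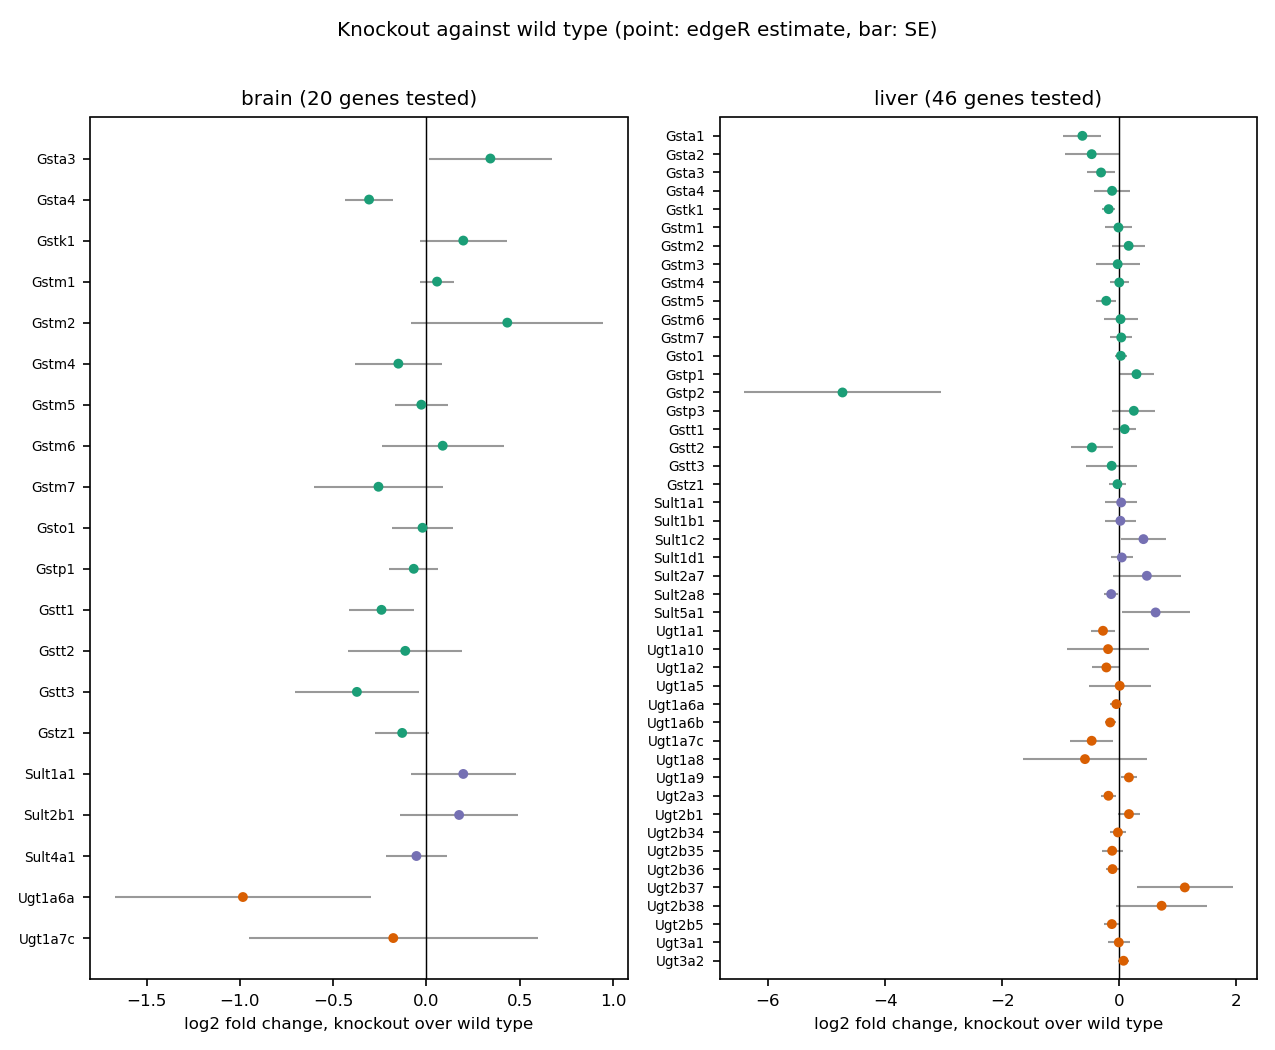
Fitted log2 fold change, knockout over wild type (horizontal axis, point) with its SE (bar), for the 20 members tested in brain and the 46 tested in liver, 3 libraries per group, coloured by family as in the plot of tissue means. Most points lie within 1 SE of 0 or close to it, and Gstp2 in liver stands far to the left with a wide SE.

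In liver none of the 46 tested members was called by edgeR's quasi-likelihood test, again as for 0% of all 15329 genes. The deleted gene Vaultrc5, at 33, 39 and 48 counts against 0 in knockout, had the smallest p and was itself not called (edgeR adjusted p = 0.333). The lack of calls therefore does not show that levels were unchanged. At an unadjusted p under 0.05 there was 1 member against 3.50% of all genes, and DESeq2 called 0 members with 1 at that unadjusted level. In liver the groups of 0 members failed to overlap, against 9.84% of all genes. The median log2 fold change was -0.02 over the members and 0.01 over all genes, with 20 members above 0 and 26 below. With the replicate number as a block, which the liver libraries bear out as a pairing, edgeR called 2 genes (0.0130%), none of them members, and 3 of 46 members (Gsta2, Gsta3 and Ugt1a7c) had an unadjusted p under 0.05, about the share of all genes (6.41%). Within the replicate numbers 8 of the 46 members were lower in knockout in all 3, against 13.8% of all genes, and 4 were higher in all 3, against 15% of them. The 8 were Gsta2, Gsta3, Gstm5, Gstt2, Sult2a8, Ugt1a1, Ugt2a3 and Ugt2b36, and the 4 were Gstp1, Sult5a1, Ugt2b1 and Ugt3a2, on the CPM scale. The place of Gstp1 among the 4 depends on the division of reads. Its sum with Gstp2 and the pseudogene Gstp-ps was lower in knockout in replicate 3, at 1268 CPM against 1588 CPM in wild type. Gsta2 and Gsta3 had log2 fold changes under the block of -0.55 ± 0.16 and -0.32 ± 0.13 (SE, edgeR adjusted p = 0.740 and 0.765). By family the median was -0.11 over 19 Ugt, -0.03 over 20 Gst and 0.04 over 7 Sult genes. The 4 Gsta genes were all below 0, between -0.63 and -0.12, none past the test, against 7471 of all 15329 genes below 0. Of the 4, 3 had their lowest level in knockout replicate 2. Gsta1 and Gsta2 shared coding windows (50.2% and 50.4%) and had fractional counts, so they are not separate readings. Their sum was not whole in any liver library, nor was that of Gstm1, Gstm3 and Gstm6. Gsta1, Gstk1 and Ugt1a6b had log2 fold changes of -0.63 ± 0.32, -0.18 ± 0.11 and -0.15 ± 0.10 (SE, n = 3 each), each with an edgeR adjusted p = 0.992. Gsta1 measured 4.61, 1.91 and 3.93 CPM in wild-type liver and 1.99, 2.42 and 2.33 CPM in knockout liver. Gstk1, a kappa-class enzyme of mitochondria and peroxisomes, measured 46.4, 40.1 and 36.5 CPM in wild-type liver and 38.8, 33.0 and 36.8 CPM in knockout liver. Ugt1a6b measured 121, 120.5 and 114 CPM in wild-type liver and 107, 96.1 and 118 CPM in knockout liver, and all 3 genes overlapped between genotypes. The sum of the Ugt1a genes had a log2 fold change of -0.18 ± 0.18 in liver (SE, n = 3 each, edgeR adjusted p = 0.992).

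Gstp2 had the largest liver difference and the largest spread. It had 2326, 218 and 14261 counts in the wild-type libraries and 83.2, 289 and 224 in the knockout libraries, so wild-type replicate 2 lay within the knockout range. Its log2 fold change was -4.73 ± 1.68 (SE, n = 3 each, edgeR adjusted p = 0.992), and it was -2.67 without wild-type replicate 3. Gstp1 ran from 34137, 54490 and 26527 counts in wild type to 50996, 53552 and 29613 in knockout. Gstp2 made up 6.37%, 0.397% and 34.9% of the counts of Gstp1, Gstp2 and the pseudogene Gstp-ps in the wild-type libraries and 0.162%, 0.536% and 0.749% in the knockout libraries. The sum of the 3 genes was whole in 12 of 12 libraries, at 36520, 54841 and 40855 counts in wild-type liver and 51199, 53960 and 29875 in knockout liver. Fitted as 1 gene, the sum had a log2 fold change of 0.10 ± 0.23 (SE, n = 3 each, edgeR adjusted p = 0.993). The 12 coding differences, 6 of them shown above, with any outside the coding sequence, are what such a division can rest on. Whether the Gstp2 values reflect transcripts or the division of reads was not tested.

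**Figure D4:**
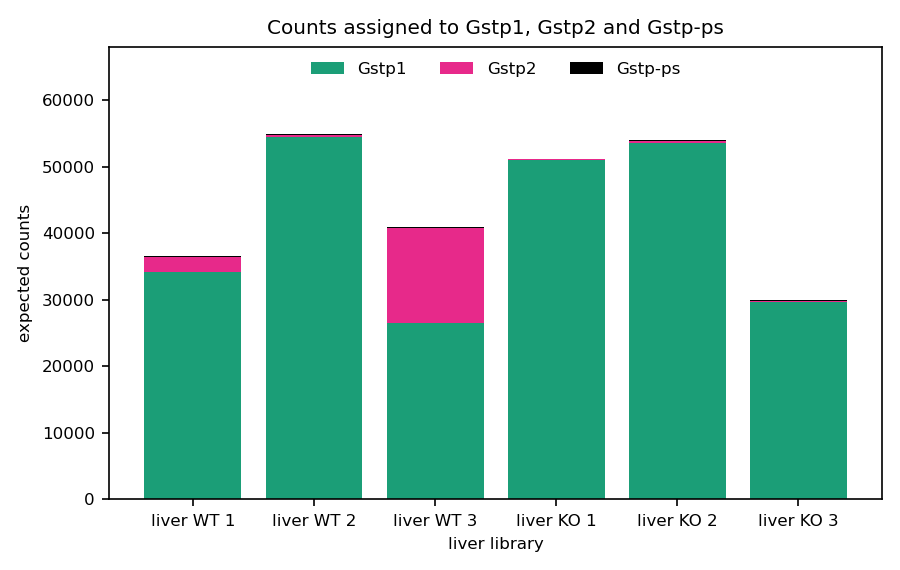
Expected counts given to Gstp1, Gstp2 and Gstp-ps, stacked, in each of the 6 liver libraries. Gstp2 takes 34.9% of the stack in wild-type replicate 3 and 6.37% in wild-type replicate 1, and under 1% in the other 4.

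The genotype by tissue interaction, tested over all 12 libraries, called none of 49 members and 0% of all 20141 genes by edgeR's quasi-likelihood test. At an unadjusted p under 0.05 there was 1 member, Ugt1a2, against 2.43% of all genes, and DESeq2 called 0 members with 1 at that unadjusted level. With the replicate block edgeR called 2 genes (0.00993%) and no member. Ugt1a2 had at most 2 counts in each brain library, so its fitted value depends on the prior count. No gene of the 4 pathway lists was called in brain, liver or interaction by edgeR. At an unadjusted p under 0.05 there was 0 in brain, 1 in liver (Cebpa, a liver transcription factor, log2 fold change -0.32) and 1 in the interaction, neither of them called. With the replicate block in liver, 6 of 20 regulators and 1 of 23 donor genes were at that unadjusted level, against 6.41% of all genes, none called by edgeR (lowest adjusted p = 0.711). Of the 6 regulators Cebpa, Cux2, Nr1i3 and Ppara were below 0 and Foxa1 and Foxa2 above 0.

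The members varied more between liver libraries than most genes did. Over the 6 libraries the highest level was more than 2 times the lowest for 18 of the 45 members at 1 CPM or more (40%), against 17.0% of 13475 genes filtered the same way. The median ratio was 1.86 over the members and 1.40 over those genes. The 18 included Gstp2, Ugt2b37, Ugt2b38, Ugt1a8, Ugt1a10, Ugt1a5, Sult5a1 and Gsta2. Ugt1a5 measured 76.1, 37.8 and 65.5 CPM in wild-type liver and 51.9, 27.9 and 101 CPM in knockout liver. Ugt2b38 measured 5.16, 12.3 and 8.86 CPM in wild type and 19.2, 21.6 and 2.72 CPM in knockout, while the sum of Ugt2b5, Ugt2b37 and Ugt2b38 had a log2 fold change of -0.11 ± 0.15 (SE, n = 3 each, edgeR adjusted p = 0.992). Sult5a1, a little studied sulfotransferase, measured 7.22, 8.76 and 3.50 CPM in wild type and 16.7, 9.18 and 4.03 CPM in knockout. Of the 18, 11 (61.1%) shared coding windows with another member, against 25 of all 45 (55.6%).

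Of these 18 members 10 had their lowest level in knockout liver replicate 2, while Gstp2, Ugt2b37, Ugt1a8, Ugt2b38, Sult5a1, Gstp1, Gsta1 and Gstm3 had it elsewhere. Over all members that library had the lowest level of the 6 for 27 of the 45 (60.0%), against 22.7% of 13572 genes. These were 14 of 20 Gst genes, 7 of 9 Ugt1 genes, 1 of 8 Ugt2 genes, 1 of 2 Ugt3 genes and 4 of 6 Sult genes. Gstt2 measured 14.5 CPM there and 29.4 to 43.1 CPM in the other 5 libraries. Gsta2 measured 6.33 CPM there and 13.4 to 26.1 CPM in the others, while Gstp1 and Ugt2b1 were highest there, at 2275 and 598 CPM. In the same library the 6 hepatocyte markers summed to 47983 CPM, against 59202 to 77630 CPM in the other 5, and the 6 pericentral hepatocyte markers, Cyp2e1 being in both lists, to 5463 CPM against 6236 to 7550 CPM. Cyp2e1 made up most of the latter (3443 CPM), and Slc1a2, Lgr5, Glul and Oat of that list were not lowest there. The 6 periportal markers summed to 4275 CPM, within the 3278 to 4384 CPM of the other 5, with Pck1 (1994 CPM) and Cyp2f2 (1207 CPM) the largest parts, while Hal (263 CPM) and Gls2 (143 CPM) of that list were lowest there. The 6 Kupffer cell markers summed to 275 CPM, against 106 to 146 CPM in the other 5, with all 6 above 3 counts in every liver library. The 6 cholangiocyte markers summed to 117 CPM against 25.5 to 40.03 CPM, mostly through Spp1 (102 CPM against 18.6 to 27.6 CPM). Sox9 (11.0 CPM against 4.20 to 9.35 CPM) and Cftr (0.850 CPM against 0.0849 to 0.515 CPM) were also highest there. Krt19 was at 1.36 CPM there and at 0.934 to 5.36 CPM in the others, and Krt7 and Epcam also lay within the range of the others. The part of any of these cells in the members' levels was not tested. Without that library the median log2 fold change of the members in liver turned from -0.02 to 0.09, with 28 members above 0 and 18 below, and edgeR called none. The median was also above 0 without wild-type replicate 1, at 0.04 (25 above, 21 below). It was -0.09 without wild-type replicate 2, -0.01 without wild-type replicate 3, -0.12 without knockout replicate 1 and -0.14 without knockout replicate 3. Without knockout liver replicate 2, 43 members were higher in knockout liver than in knockout brain in place of 42. Leaving out any 1 of the knockout brain libraries, replicate 3 with its pancreatic markers among them, gave 45.

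**Figure D5:**
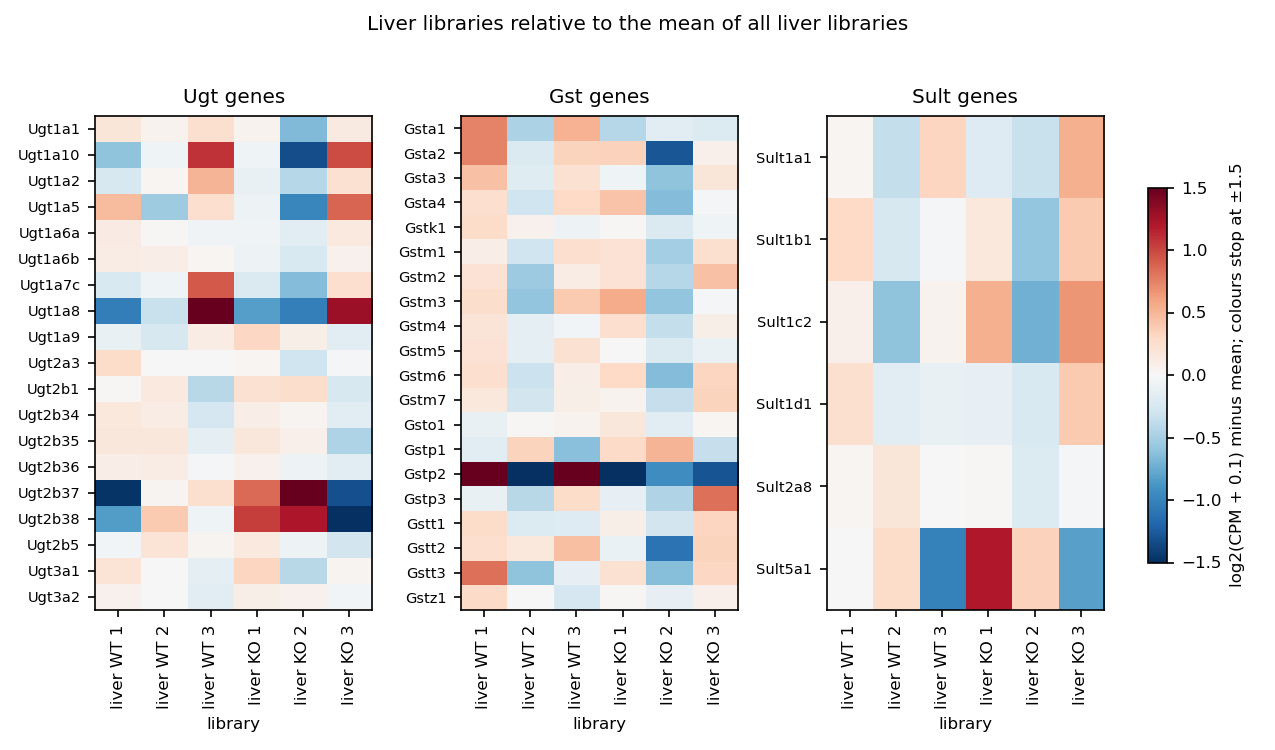
Level of the 45 members at 1 CPM or more in liver, as log2(CPM + 0.1) minus its mean over the 6 liver libraries, by gene and library, with colours ending at 1.5 in either direction. Knockout replicate 2 is blue for most Gst and Ugt1 genes and not for most Ugt2 genes, and Gstp2, Ugt2b37, Ugt2b38 and Ugt1a8 vary most.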

How the data were processed

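The 64 genes, the pathway lists and the cell type markers were chosen with earlier results of these data known. Total RNA from 12 libraries (brain and liver, wild type and knockout, 3 each) was sequenced as stranded single-end libraries after ribosomal depletion, per the labels' protocols. The authors deposited expected counts per gene, neither normalized nor pooled; between 5.06% and 5.71% of each library's values had a fractional part. The submitters' processing notes name cutadapt, STAR and the build mm10, without role or version; which tool counted reads, and whether by strand, is not given in the sources used here. All 55450 gene identifiers and symbols matched GENCODE M21 (GRCm38), which gave coordinates, exon lengths and coding sequences. Replicates were separate libraries: the 12 pairs within groups differed by 27.2 to 228 times the degrees of freedom in a chi-square over genes with 20 or more counts.

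Counts were rounded and tested with edgeR 4.0.16 (R 4.3.3; TMM, filterByExpr with a minimum count of 10 and total of 15, robust quasi-likelihood fit), with Benjamini-Hochberg adjustment over all genes and a threshold of 0.05. DESeq2 1.42.0 was an alternative. SEs were derived from the fold change and its F statistic. Simulated counts served as a check of the tests. Same-numbered liver libraries deviated together from their group means (r = 0.33, 0.36 and 0.40 over 13327 genes), a pairing seen in the data and not stated in the labels; brain libraries gave r = 0.65, 0.62 and -0.02 and are not called paired. Genes are named as the 6 highest per kb in wild-type liver and 4 highest in brain in each family (at 1 CPM or more), the 4 smallest genotype p in each tissue, members higher in brain, and in each pathway list the 2 largest tissue differences, read as 2 in each direction where there were as many. Others (such as Ugt2b38, Ugt1a5, Gstt2, Gsta2, Ugt1a7c and the regulators named in the liver comparison) were chosen after their values were seen. Alternatives were size factors, library totals, DESeq2, 2 low-count filters, summed near-identical genes, the replicate block, 1 fit over 12 libraries, each library left out, another gene length and library totals for CPM.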

Additional observations from a re-analysis of the deposited data

How the results depend on the processing

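The number of members called was 0 in brain, liver and interaction under every alternative run. Over all genes, the liver count of 0 became 10 with DESeq2, 4 when genes with at least 1 count were tested and 2 with the replicate block; leaving out 1 library gave 0 to 1, the 1 without wild-type liver replicate 2. The interaction count of 0 became 1 with DESeq2 and 2 with the replicate block. The cause of these shifts was not tested. No direction of a called member reversed. Members higher in wild-type liver numbered 35 (the 9 Ugt1a genes summed to 1) to 45, and 35 to 45 in knockout. Summing Gstp1, Gstp2 and Gstp-ps, and Ugt2b5, Ugt2b37 and Ugt2b38, was chosen after seeing the data. The order per length depends on the length used: with the longest transcript Gstp1 was at 1814 CPM per kb in wild-type liver, above Gstm1 at 969, and in wild-type brain at 74.3, above Gstm1 (62.2) and Gstm5 (46.2). Levels under 0.110 to 0.198 CPM, the floor of 3 counts, were not resolved at this depth.

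In brain the libraries numbered 1 and those numbered 2 deviated together (r = 0.65 and 0.62), and those numbered 3 did not (r = -0.02). There the replicate block in edgeR gave 0 called genes and 406 at an unadjusted p under 0.05, against 122 without it. In the tissue comparisons brain and liver libraries of 1 number did not deviate together (r between 0.0048 and 0.042), and the block left 43 and 42 members higher in liver.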
